A study of Mus musculus with 12 samples.

Results

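The genes described here encode the core of the elastic fibre and the fibrillin microfibrils around it, namely Eln, Fbn1, Fbn2, Fbln1, Fbln2, Fbln5, Ltbp1, Ltbp2, Ltbp4 and Thsd4. They were chosen by name as 10 of the 34347 genes in the deposited table, and all 10 passed the filter on low counts in every comparison. Their expression was measured by RNA-seq in dental epithelium and dental mesenchyme of wild-type C57BL/6 mouse embryos at the embryonic days E11.5 and E13.5, with 3 libraries in each of the 4 tissue and stage groups and no treatment or mutant allele in any of them. The study compared epithelium with mesenchyme at each stage, and the same libraries allow each tissue to be compared between stages. Mandibles were dissected at E11.5 but tooth germs at E13.5, so that stage and the piece dissected cannot be told apart. Incisor and molar material was included, the tissues were parted with dispase, and the labels speak of pooled RNA, so a library may hold several embryos and p-values measure the spread between these libraries.

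Elastic fibres form outside the cell in steps. Fibrillins assemble into microfibrils, tropoelastin is deposited on them, fibulins bring tropoelastin, the microfibril and the crosslinking enzymes together, and lysyl oxidases then crosslink the elastin. Microfibrils also hold latent TGF-beta through the latent TGF-beta binding proteins, and in the tooth they are best known as the oxytalan fibres of the periodontal ligament, which are microfibril bundles with little or no elastin.

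The 12 libraries held between 70134554 and 79349382 estimated counts. Epithelial markers fixed in a list of 10 (Epcam, Cdh1 and keratins among them) were far above the mesenchyme in every epithelium library, with a median gene at 899% to 1204% of the mesenchyme mean at E11.5 and 622% to 2051% at E13.5. Mesenchyme markers (10 genes, Vim, Prrx1 and Twist1 among them) were also present in the epithelium libraries, and no gene of either list was at 0 in all libraries of a group. Replicate 3 of E13.5 epithelium stood apart in its mesenchyme markers. The median mesenchyme marker in it was at 84.8% of the E13.5 mesenchyme mean, against 26.0% and 16.1% in replicates 1 and 2, and the comparisons that rest on it were therefore also fitted without it. In bulk tissue, fewer cells of a type and less RNA per cell cannot be told apart. The strand used in counting is not given in the sources used here, but the antisense genes that overlap Eln, Fbn1 and Ltbp2 and the rRNA and unclassified gene models inside Thsd4 were at 0.410 FPKM or less in all libraries, where FPKM is fragments scaled to exon length and to the mapped fragments of the library. The antisense gene of Ltbp2, D030025P21Rik, reached 0.0889 FPKM in its highest library, which is above the Ltbp2 level of every E11.5 library.

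The sequence around the transcription start is shown for the gene whose rise in mesenchyme was measured with the smallest p-value (Thsd4), the main fibrillin of adult tissue (Fbn1), a member that rose in both tissues by a like amount (Ltbp4) and the member that did not pass in either (Fbln1). Each run covers 250 bases before to 50 bases after the RefSeq start in GRCm38.p6, is read 5′ to 3′ on the gene's strand, and has GC boxes, the letters GGGCGG or their reverse complement CCGCCC, in capitals.
Thsd4, chr9:60510986-60511285, minus strand: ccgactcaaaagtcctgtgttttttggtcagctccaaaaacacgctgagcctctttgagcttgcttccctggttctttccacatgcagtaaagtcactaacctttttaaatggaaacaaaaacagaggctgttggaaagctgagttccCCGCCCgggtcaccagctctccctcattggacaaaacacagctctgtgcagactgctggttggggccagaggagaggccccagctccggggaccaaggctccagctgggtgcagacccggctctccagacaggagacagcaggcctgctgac
Fbn1, chr2:125506389-125506688, minus strand: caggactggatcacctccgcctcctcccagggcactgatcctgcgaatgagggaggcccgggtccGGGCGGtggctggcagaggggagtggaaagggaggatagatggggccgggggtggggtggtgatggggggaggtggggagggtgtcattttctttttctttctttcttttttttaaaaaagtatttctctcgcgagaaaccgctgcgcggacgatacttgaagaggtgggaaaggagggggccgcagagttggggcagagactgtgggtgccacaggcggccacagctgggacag
Ltbp4, chr7:27337563-27337862, minus strand: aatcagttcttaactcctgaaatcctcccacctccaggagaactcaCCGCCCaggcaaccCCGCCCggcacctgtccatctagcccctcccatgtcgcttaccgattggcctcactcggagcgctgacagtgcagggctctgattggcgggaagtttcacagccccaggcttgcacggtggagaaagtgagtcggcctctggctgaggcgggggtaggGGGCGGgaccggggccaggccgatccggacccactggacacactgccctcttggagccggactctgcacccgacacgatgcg
Fbln1, chr15:85205699-85205998, plus strand: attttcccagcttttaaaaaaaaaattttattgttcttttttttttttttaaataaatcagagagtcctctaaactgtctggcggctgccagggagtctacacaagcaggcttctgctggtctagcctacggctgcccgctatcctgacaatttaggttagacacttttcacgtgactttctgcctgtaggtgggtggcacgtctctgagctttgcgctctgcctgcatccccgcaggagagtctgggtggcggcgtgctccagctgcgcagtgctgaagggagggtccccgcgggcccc
The Ltbp4 window held 3 GC boxes and was 64.3% G and C, the Fbn1 window held 1 and was 60.3% G and C, and the Thsd4 window held 1 and was 55% G and C. The Fbln1 window held none and was 51.7% G and C, beside a median of 52.7% over all 32851 mouse promoters in the table. RefSeq promoters were at hand for 8 members that are shown or counted here. A GC box on either strand was found in 6 of these 8, in all but Fbln1 and Ltbp1, against 35.7% of all promoters. The TATA box letters TATAAA were found in none of the 8, against 13.6% of all promoters, and the AP-1 letters TGANTCA in none, against 7.81%. The CCAAT letters were in 4 (Fbln5, Ltbp1, Ltbp4 and Thsd4), against 37.4%, and the Smad-binding letters CAGAC were in 5 (Fbln1, Fbln5, Ltbp1, Ltbp2 and Thsd4), against 49.6%, each searched on both strands. These matches are a description of the letters in the windows.

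From E11.5 to E13.5, 9 of the 10 genes rose in dental mesenchyme and none fell. Tropoelastin rose 13.8-fold, Ltbp2 18-fold, Thsd4 8.08-fold, and Fbln5, Ltbp4, Fbn1 and Ltbp1 between 3.0-fold and 3.88-fold, while Fbln1 did not pass the test. The background was 22.0% of the 20271 genes tested, the share that rose at an adjusted p under 0.05 (edgeR quasi-likelihood test, Benjamini-Hochberg adjustment over all genes). With the study's further limit of a log2 fold change of at least 1, 8 members passed, all but Fbln1 and Fbln2, beside 13.1% of all genes. The median log2 fold change of the members was 1.72 and that of all genes tested was 0.01. In dental epithelium, 3 of the 10 rose (Eln 5.92-fold, Ltbp2 5.94-fold and Ltbp4 3.63-fold) and none fell, beside 5.47% of 20467 genes that rose. Without E13.5 epithelium replicate 3, the log2 fold change of Eln there was 1.93 in place of 2.57, and Fbn2 fell. Between the tissues, only Fbln2 passed at E11.5, being 1.89-fold lower in epithelium, beside 1.63% of 20063 genes that were lower there. At E13.5 no member passed in either direction in edgeR, beside 1.83% of 20584 genes called. All 10 members had a log2 fold change below 0, but Ltbp4 only at -0.01, with a sign that turned in other fits. An unadjusted p under 0.05 was seen for 7 members, beside 2364 of the 20584 genes that were lower in epithelium at that p. DESeq2 called 2 (Eln and Fbln2), beside 11.2% of all genes in DESeq2.

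**Figure D1:**
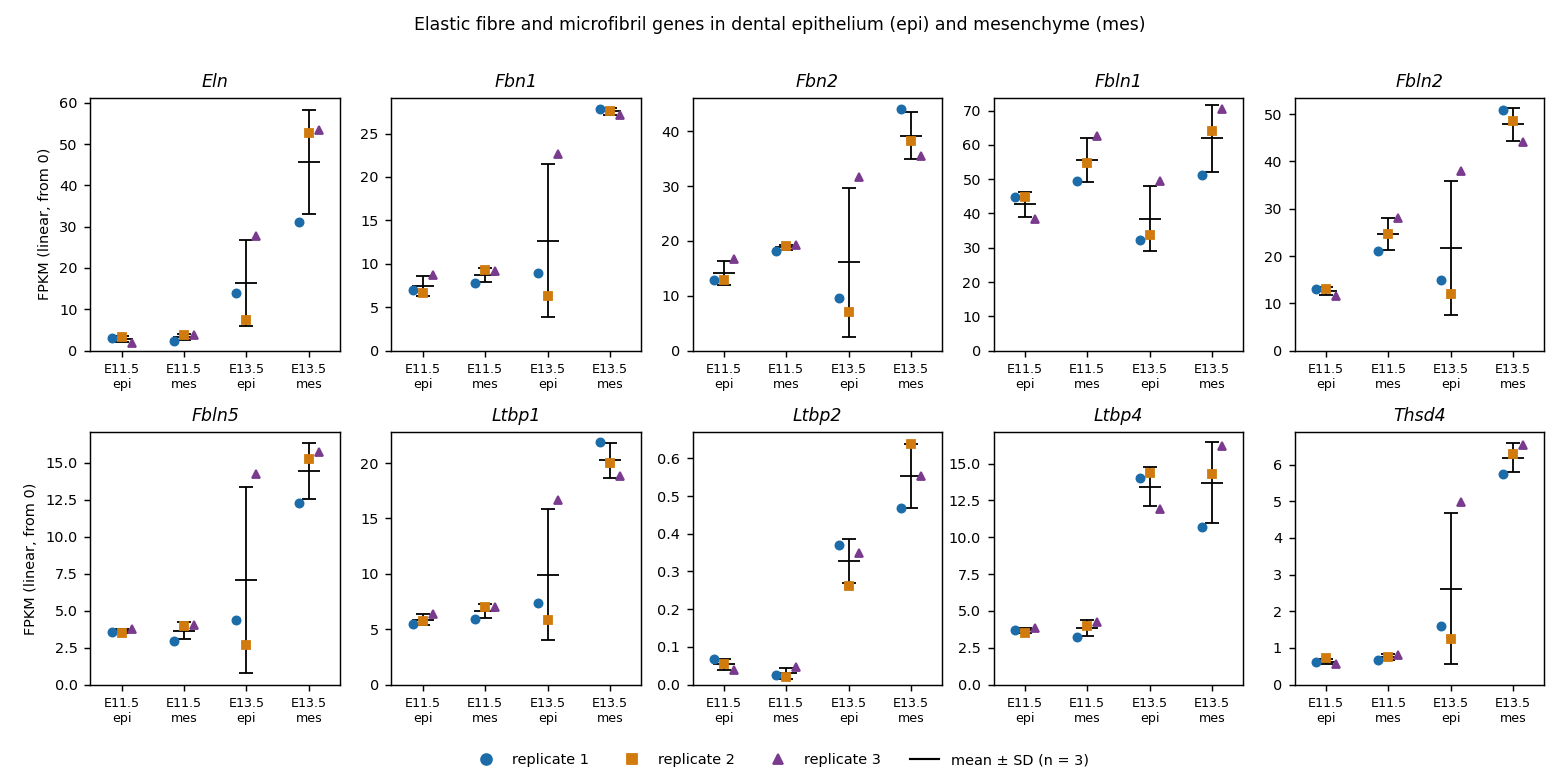
FPKM of the 10 genes (vertical axes, linear from 0, each gene on its own scale) in the 4 groups, where symbols are the 3 libraries of a group and bars are the mean and SD. In the E13.5 epithelium the triangle, replicate 3, lies far above the other libraries of its group for Fbn1, Fbn2, Fbln2, Fbln5, Ltbp1 and Thsd4, and for Ltbp4 the E13.5 groups overlap.

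Eln (ENSMUSG00000029675, mm10 chr5:134702593-134747323, minus strand) encodes tropoelastin, the soluble unit that is crosslinked into the elastin core. At E11.5 its level was 3.02, 3.37 and 1.95 FPKM in epithelium replicates 1, 2 and 3 and 2.33, 3.78 and 3.67 FPKM in mesenchyme. At E13.5 it was 13.9, 7.51 and 27.8 FPKM in epithelium and 31.0, 52.7 and 53.3 FPKM in mesenchyme. All libraries of E13.5 lay above all of E11.5 in either tissue, the E11.5 tissues overlapped, and at E13.5 every mesenchyme library was above every epithelium library. Its log2 fold change with stage was 3.79 ± 0.25 (SE) in mesenchyme (edgeR adjusted p = 1.65e-05) and 2.57 ± 0.48 in epithelium (edgeR adjusted p = 0.0273), where it was 1.93 ± 0.31 (edgeR adjusted p = 0.00882) without E13.5 epithelium replicate 3. At E13.5 the log2 fold change of epithelium against mesenchyme was -1.45 ± 0.46 (edgeR adjusted p = 0.142), and without E13.5 epithelium replicate 3 it was -2.09 ± 0.32 (edgeR adjusted p = 0.00327). By mean level, Eln was eighth of the 10 genes in both E11.5 groups and the third in both E13.5 groups.

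Fbn1 and Fbn2 encode the fibrillins, the long glycoproteins that polymerise into the microfibril itself. Fbn1 (ENSMUSG00000027204, chr2:125300594-125507993, minus strand) was at 6.93, 6.68 and 8.74 FPKM in epithelium at E11.5 and 7.79, 9.23 and 9.20 FPKM in mesenchyme at E11.5. Its E13.5 values were 8.99, 6.25 and 22.7 FPKM in epithelium and 27.8, 27.6 and 27.1 FPKM in mesenchyme. The E13.5 mesenchyme libraries were tightly grouped and above all others, whereas the E13.5 epithelium libraries 1 and 2 lay within or next to the range of E11.5. The mesenchyme log2 fold change with stage was 1.63 ± 0.08 (SE, edgeR adjusted p = 5.97e-06), and the epithelium value of 0.77 ± 0.45 (edgeR adjusted p = 0.329) became 0.02 ± 0.19 without E13.5 epithelium replicate 3.

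Fbn2 (ENSMUSG00000024598, chr18:58008623-58210487, minus strand), the fibrillin best known from embryonic tissue, was above Fbn1 by FPKM in every library. It measured 12.9, 13 and 16.7 FPKM in epithelium at E11.5 and 18.2, 19.0 and 19.2 FPKM in mesenchyme at E11.5, then 9.59, 6.96 and 31.7 FPKM in epithelium at E13.5 and 44.0, 38.2 and 35.5 FPKM in mesenchyme at E13.5. The mesenchyme stages did not overlap, and in E13.5 epithelium replicates 1 and 2 were below every E11.5 library while replicate 3 was above them. The log2 fold change with stage was 1.03 ± 0.10 (SE) in mesenchyme (edgeR adjusted p = 0.000112), and 1.07 (edgeR adjusted p = 0.0809) when all 12 libraries were fitted together. In epithelium it was 0.19 ± 0.53 (edgeR adjusted p = 0.861), and it turned to -0.79 ± 0.19 (edgeR adjusted p = 0.0325) without E13.5 epithelium replicate 3, so the sign of the Fbn2 value in epithelium turned when that library was left out.

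Fbln1, Fbln2 and Fbln5 encode fibulins, glycoproteins that bind elastin and fibrillins. Fbln1 (ENSMUSG00000006369, chr15:85205949-85286535, plus strand), which is also a basement membrane protein, had the highest mean of the 10 genes in each group. Its levels were 44.9, 44.7 and 38.3 FPKM in epithelium at E11.5, 49.6, 54.8 and 62.5 FPKM in mesenchyme at E11.5, 32.1, 33.8 and 49.3 FPKM in epithelium at E13.5 and 51.3, 64 and 70.3 FPKM in mesenchyme at E13.5. Epithelium was below mesenchyme without overlap at either stage, and the stages overlapped within each tissue. Its log2 fold change with stage was 0.13 ± 0.12 (SE) in mesenchyme (edgeR adjusted p = 0.432) and -0.15 ± 0.19 in epithelium (edgeR adjusted p = 0.678). Without E13.5 mesenchyme replicate 1 the mesenchyme value was 0.24 ± 0.08 (edgeR adjusted p = 0.0479).

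Fbln2 (ENSMUSG00000064080, chr6:91212455-91272540, plus strand), a fibulin of basement membranes and vessel walls, was at 12.9, 13.1 and 11.6 FPKM in epithelium at E11.5 and 21.1, 24.8 and 28.1 FPKM in mesenchyme at E11.5. The E13.5 libraries had 14.9, 12.1 and 37.9 FPKM in epithelium and 50.8, 48.6 and 44.1 FPKM in mesenchyme. Mesenchyme was above epithelium without overlap at both stages. At E11.5 the log2 fold change of epithelium against mesenchyme was -0.92 ± 0.09 (SE, edgeR adjusted p = 0.00134), and in mesenchyme it rose by 0.93 ± 0.10 with stage (edgeR adjusted p = 0.000219), which is under the log2 limit of 1. The E11.5 tissue difference had an edgeR adjusted p of 0.181 when all 12 libraries were fitted together.

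Fbln5 (ENSMUSG00000021186, chr12:101746565-101819055, minus strand) is known in mice to be needed for elastic fibre assembly. It measured 3.55, 3.49 and 3.77 FPKM in epithelium at E11.5 and 2.96, 3.95 and 4.04 FPKM in mesenchyme at E11.5, which overlapped. At E13.5 the epithelium libraries were at 4.35, 2.65 and 14.2 FPKM and the mesenchyme libraries at 12.3, 15.3 and 15.7 FPKM, so that epithelium replicate 3 lay among the mesenchyme libraries and replicates 1 and 2 far below. Fbln5 was the member with the widest relative spread in that group, with a mean of 7.07 ± 6.25 FPKM (SD, n = 3). It rose in mesenchyme by a log2 fold change of 1.96 ± 0.13 (SE, edgeR adjusted p = 1.85e-05). At E13.5 the log2 fold change of epithelium against mesenchyme went from -0.99 ± 0.57 (edgeR adjusted p = 0.324) to -2.04 ± 0.22 (edgeR adjusted p = 0.000755) when replicate 3 was left out.

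Ltbp1, Ltbp2 and Ltbp4 belong to the latent TGF-beta binding proteins, which share the repeat structure of the fibrillins. Ltbp1 (ENSMUSG00000001870, chr17:75005568-75392512, plus strand), which binds latent TGF-beta covalently, was at 5.45, 5.74 and 6.39 FPKM in epithelium at E11.5, 5.92, 7.01 and 6.97 FPKM in mesenchyme at E11.5, 7.34, 5.82 and 16.7 FPKM in epithelium at E13.5 and 21.9, 20.001 and 18.8 FPKM in mesenchyme at E13.5. Only the E13.5 mesenchyme stood clear of the other groups, and its log2 fold change with stage was 1.58 ± 0.10 (SE, edgeR adjusted p = 1.29e-05).

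Ltbp4 (ENSMUSG00000040488, chr7:27305136-27337692, minus strand), which binds latent TGF-beta and is also known in mice to act with fibulins in elastic fibre assembly, was at 3.73, 3.51 and 3.84 FPKM in epithelium at E11.5 and 3.26, 4.01 and 4.27 FPKM in mesenchyme at E11.5. By E13.5 it had reached 14.0, 14.3 and 11.9 FPKM in epithelium and 10.7, 14.3 and 16.2 FPKM in mesenchyme. The tissues overlapped at each stage and the stages did not overlap in either tissue. The log2 fold change with stage was 1.86 ± 0.12 (SE) in epithelium (edgeR adjusted p = 0.00158) and 1.81 ± 0.15 in mesenchyme (edgeR adjusted p = 5.08e-05). Ltbp4 was the only member whose E13.5 epithelium replicate 3 was the lowest of its group, and the epithelium value without that library was 1.93 ± 0.11 (edgeR adjusted p = 0.000387).

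Ltbp2 (ENSMUSG00000002020, chr12:84783212-84876532, minus strand), a microfibril protein that does not bind latent TGF-beta, had the lowest level of the 10 genes throughout. It was at 0.0691, 0.0546 and 0.0395 FPKM in epithelium at E11.5 and 0.0249, 0.0194 and 0.0457 FPKM in mesenchyme at E11.5, from 14 to 49 estimated counts. By E13.5 it measured 0.371, 0.261 and 0.350 FPKM in epithelium and 0.469, 0.638 and 0.554 FPKM in mesenchyme, from 201 to 454 estimated counts. The stages did not overlap in either tissue. Its log2 fold change with stage was 4.17 ± 0.35 (SE) in mesenchyme (edgeR adjusted p = 5.68e-05) and 2.57 ± 0.35 in epithelium (edgeR adjusted p = 0.0132), where it was 2.51 ± 0.37 (edgeR adjusted p = 0.0069) without E13.5 epithelium replicate 3. On the log2(FPKM + 0.5) scale, which understates the change of low genes, limma without a filter gave 0.99 in mesenchyme (adjusted p = 0.00178) and 0.58 in epithelium (adjusted p = 0.0458). The standard error in mesenchyme was the largest of the 10 genes, and the E11.5 counts were the lowest.

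Thsd4 (ENSMUSG00000032289, chr9:59966931-60511035, minus strand) encodes an ADAMTS-like protein without protease activity that binds fibrillin and is known to promote fibrillin microfibril assembly, in the periodontal tissue of mice among others. It was at 0.605, 0.714 and 0.565 FPKM in epithelium at E11.5 and 0.669, 0.766 and 0.816 FPKM in mesenchyme at E11.5. The E13.5 libraries measured 1.59, 1.26 and 4.98 FPKM in epithelium and 5.75, 6.27 and 6.53 FPKM in mesenchyme. Both tissues were higher at E13.5 without overlap, and the E13.5 mesenchyme was above the E13.5 epithelium. The mesenchyme log2 fold change with stage was 3.01 ± 0.10 (SE, edgeR adjusted p = 1.64e-06), the smallest adjusted p of the 10 genes. In epithelium it was 2.06 ± 0.52 (edgeR adjusted p = 0.0542), just over the threshold, and 1.17 ± 0.18 (edgeR adjusted p = 0.00744) without E13.5 epithelium replicate 3.

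**Figure D2:**
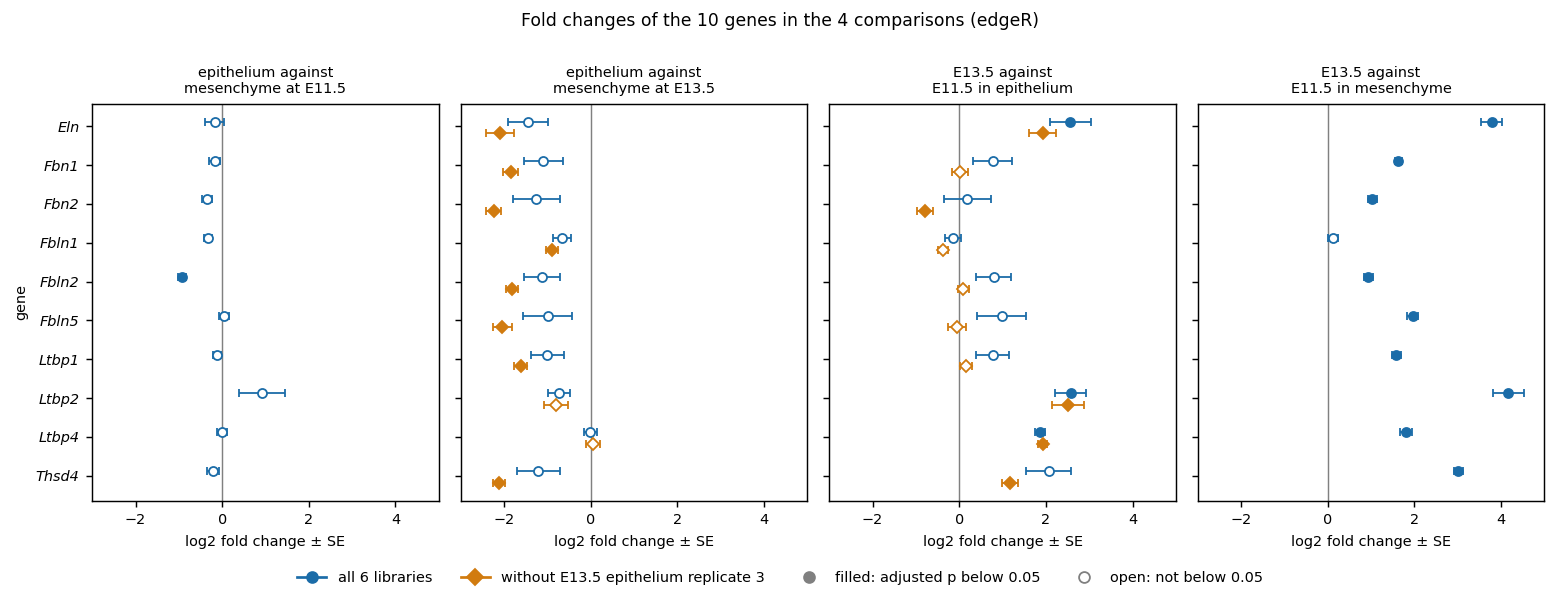
Log2 fold change ± SE (horizontal axis) of each gene (vertical axis) in the 4 comparisons, fitted on the libraries of the groups compared (circles) and, where E13.5 epithelium takes part, without its replicate 3 (diamonds), with filled symbols for an adjusted p below 0.05. In mesenchyme 9 of 10 genes are filled to the right of 0, and at E13.5 the tissue comparison goes from 0 to 8 filled symbols when replicate 3 is left out.

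Summed over the 10 genes, the E11.5 epithelium libraries reached 91.9 to 94.3 FPKM and the E11.5 mesenchyme libraries 112 to 139 FPKM. The sum was 256 to 288 FPKM in mesenchyme at E13.5, and 107, 90.9 and 218 FPKM in replicates 1, 2 and 3 of E13.5 epithelium. Fbln1 alone made up 41.7% to 47.7% of the sum in the E11.5 libraries and 20.03% to 24.4% in mesenchyme at E13.5, while Fbln1 itself did not pass the test with stage. The order of mean levels at E11.5 was Fbln1, Fbn2, Fbln2, Fbn1, Ltbp1, Ltbp4, Fbln5, Eln, Thsd4 and Ltbp2 in epithelium, and the same in mesenchyme but with Fbln2 before Fbn2. In E11.5 epithelium the neighbours Fbn2 (14.2 ± 2.15 FPKM, SD, n = 3) and Fbln2 (12.5 ± 0.837) did not differ beyond their SDs, nor did Ltbp4 (3.69 ± 0.166), Fbln5 (3.60 ± 0.146) and, in mesenchyme, Ltbp4 (3.85 ± 0.526), Fbln5 (3.65 ± 0.596) and Eln (3.26 ± 0.807). In E13.5 epithelium the order was Fbln1 (38.4 ± 9.50), Fbln2 (21.6 ± 14.2), Eln (16.4 ± 10.4), Fbn2 (16.1 ± 13.6), Ltbp4 (13.4 ± 1.31), Fbn1 (12.6 ± 8.80), Ltbp1 (9.94 ± 5.88), Fbln5 (7.07 ± 6.25), Thsd4 (2.61 ± 2.06) and Ltbp2 (0.327 ± 0.0581), and the spread was so wide that none of the neighbours from Fbln2 to Thsd4 differed beyond it. In E13.5 mesenchyme the order was Fbln1 (61.9 ± 9.69 FPKM, SD, n = 3), Fbln2 (47.8 ± 3.42), Eln (45.7 ± 12.7), Fbn2 (39.2 ± 4.35), Fbn1 (27.5 ± 0.359), Ltbp1 (20.2 ± 1.57), Fbln5 (14.4 ± 1.86), Ltbp4 (13.7 ± 2.77), Thsd4 (6.18 ± 0.399) and Ltbp2 (0.553 ± 0.0849). There the neighbours Fbln2 and Eln, Eln and Fbn2, and Fbln5 and Ltbp4 did not differ beyond these SDs. All these SDs are between libraries and do not measure the difference between genes of the same library. Ltbp4 was above Fbln5 in every E11.5 library, and Fbln5 above Eln in every E11.5 mesenchyme library. In every E13.5 epithelium library, Fbln2 was above Eln, Fbn1 above Ltbp1, Ltbp1 above Fbln5 and Fbln5 above Thsd4. The other neighbours from Fbln2 to Thsd4 changed order there between libraries.

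The mesenchyme comparison did not depend on a single library. In all 9 genes that rose, every E13.5 mesenchyme library was above every E11.5 mesenchyme library, beside 29.1% of all genes tested that were arranged so, and 9 or 10 members passed when any library of the 2 groups was left out. Other cell types changed between the same libraries. The marker counts stand beside 22.0% of all genes tested that rose and 3437 of 20271 that fell. Smooth muscle and pericyte markers rose in 8 of 8 genes, with a summed level of 18.6 to 33.8 FPKM in mesenchyme at E11.5 and 89.4 to 156 FPKM in mesenchyme at E13.5. Cartilage markers rose in 5 of 6 genes (sums of 48.8 to 62.1 and 177 to 227 FPKM), osteoblast markers in 5 of 6 (8.04 to 12.3 and 157 to 294 FPKM), and skeletal muscle markers in 7 of 8 (22.6 to 72.5 and 251 to 509 FPKM). Endothelial markers rose in 7 of 8 genes (58.6 to 65.1 and 90.3 to 102 FPKM) and macrophage markers in 6 of 6 (3.94 to 7.53 and 13.45 to 36.9 FPKM). Epithelial markers rose in 7 of 10 genes (25.8 to 29.9 and 81.5 to 121 FPKM), Schwann and glial markers in 4 of 5, neuron markers in 3 of 6 and mesenchyme markers in 4 of 10 with 3 that fell, and 4 of 5 erythroid markers fell. No gene of these lists was at 0 in all libraries of a group. The part of these cell types in the rise of the elastic fibre genes was not tested.

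In dental epithelium, the stage comparison gave fewer calls. The 4 genes Eln, Ltbp2, Ltbp4 and Thsd4 were higher in every E13.5 than in every E11.5 epithelium library, beside 18.2% of all genes, and the first 3 of them passed. Without E13.5 epithelium replicate 3, all 4 passed and Fbn2 was lower, beside 17.2% of genes called in either direction in that fit, and Fbn1, Fbln2, Fbln5 and Ltbp1 then had log2 fold changes between -0.06 and 0.15, and Fbln1 was at -0.38 ± 0.12 (SE, edgeR adjusted p = 0.0684). The count fell to 1 gene, Ltbp4, when E11.5 epithelium replicate 1 or 2 or E13.5 epithelium replicate 1 was left out, with Eln at an edgeR adjusted p of 0.0942 to 0.115 and Ltbp2 at 0.0724 to 0.0803. The share of all genes called in either direction in these 3 fits was 0.266%, 0.243% and 0.391%, against 8.48% with all libraries. Without E11.5 epithelium replicate 3, Ltbp2 and Ltbp4 passed and Eln was at an edgeR adjusted p of 0.0608, and without E13.5 epithelium replicate 2 Thsd4 passed as well. Ltbp4 passed in each of the 6 fits that left out an epithelium library. Markers of other cell types moved between the same libraries, and their counts stand beside 5.47% of all genes tested that rose and 616 of 20467 that fell. The summed level of skeletal muscle markers was 38.6 to 110 FPKM at E11.5 and 162 to 322 FPKM at E13.5, with 2 of 8 genes that rose, and that of smooth muscle and pericyte markers was 34.1 to 49.0 and 51.5 to 102 FPKM, with 1 of 8 that rose. Neuron markers went from 48.5 to 186 FPKM at E11.5 to 15.0 to 32.4 FPKM at E13.5, with 2 of 6 genes that fell, and epithelial markers from 260 to 318 FPKM to 673 to 3321 FPKM, with 4 of 10 that rose. Cartilage markers rose in 3 of 6 genes, erythroid markers fell in 2 of 5, 1 of 5 glial markers rose and 1 fell, and no mesenchyme, endothelial, osteoblast or macrophage marker passed in edgeR, where 2, 0, 2 and 1 of them had an unadjusted p below 0.05, while DESeq2 called 2 osteoblast markers and 1 macrophage marker. These marker calls are from the fit with all libraries. Summed mesenchyme markers were at 263 to 396 FPKM in E11.5 epithelium. At E13.5 they were at 171, 126 and 449 FPKM in epithelium replicates 1, 2 and 3, so that replicates 1 and 2 lay below every E11.5 epithelium library. The part of these cells in the members' values, with or without replicate 3, was not tested.

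At E13.5, the comparison of epithelium with mesenchyme turned on 1 library. For 8 of the 10 genes, all but Fbln5 and Ltbp4, every epithelium library was below every mesenchyme library, beside 17.3% of all genes. With all libraries the log2 fold changes were between -0.66 (Fbln1) and -1.45 (Eln) for the 9 genes other than Ltbp4, which was at -0.01, and none passed (edgeR adjusted p from 0.136 to 0.988). As a share of the E13.5 mesenchyme mean, the median member was at 31.9%, 24.0% and 80.7% in epithelium replicates 1, 2 and 3, and the median mesenchyme marker was at 26.0%, 16.1% and 84.8% in the same libraries. The 2 medians moved together, and the part of mesenchyme RNA in the members' level was not tested. Ltbp4 was an exception, at 102%, 105% and 87.1% of the mesenchyme mean, and Ltbp2 was at 67.0%, 47.2% and 63.2%. Without replicate 3, 8 members were lower in epithelium, beside 15.7% of all genes, with log2 fold changes from -0.90 ± 0.14 (SE) for Fbln1 to -2.24 ± 0.18 for Fbn2. Ltbp2, at -0.80 ± 0.27 (edgeR adjusted p = 0.0643), and Ltbp4, at 0.06 ± 0.16 (edgeR adjusted p = 0.823), did not pass in that fit.

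**Figure D3:**
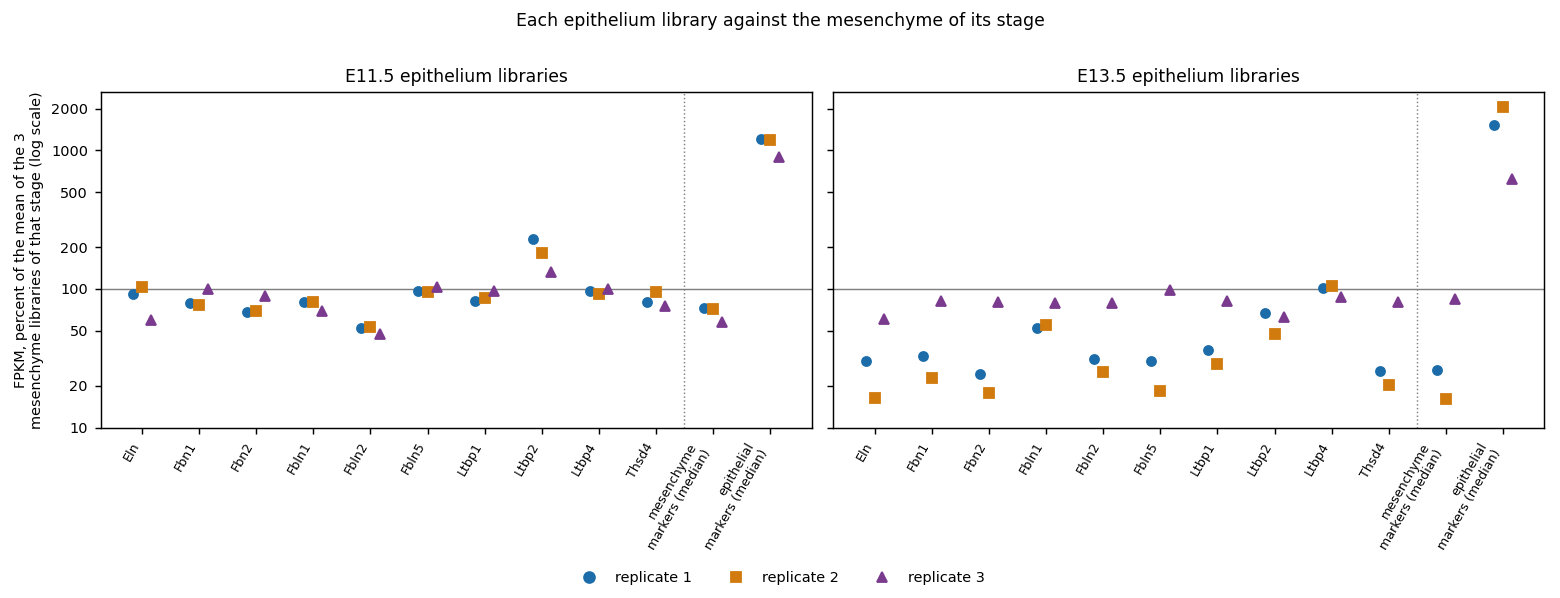
Each epithelium library as a percent of the mean of the 3 mesenchyme libraries of its stage (vertical axis, log scale), for the 10 genes and for the median gene of the mesenchyme and epithelial marker lists right of the dotted line. At E13.5, replicate 3 (triangles) lies near the 80.7% of its median member while replicates 1 and 2 lie near 31.9% and 24.0%, and Ltbp4 is near 100% in all 3.

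At E11.5, 1 member differed between the tissues. The median member in epithelium replicates 1, 2 and 3 was at 81.5%, 88.9% and 92.5% of the mesenchyme mean, and the median mesenchyme marker at 72.3%, 71.9% and 57.6%. Fbn2, Fbln1 and Fbln2 were below mesenchyme in every epithelium library, beside 14.1% of all genes, and of these Fbln2 passed. Fbn2 had a log2 fold change of -0.36 ± 0.12 (SE, edgeR adjusted p = 0.143) and Fbln1 of -0.33 ± 0.09 (edgeR adjusted p = 0.0832). Without E11.5 epithelium replicate 3, 4 members were lower (Fbn1, Fbn2, Fbln1 and Fbln2), beside 1572 of 20880 genes that were lower and 17.8% called in either direction. The E11.5 epithelium libraries also carried neuron markers at a summed 48.5 to 186 FPKM, against 19.6 to 24.7 FPKM in mesenchyme, and their part in these values was not tested.

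Whether the tissue difference changed between the stages was tested with the tissue-by-stage interaction over all 12 libraries. No member passed, beside 0.204% of 22110 genes called. Ltbp2 had the smallest p, with an interaction of -1.64 ± 0.47 (SE) on the log2 scale (edgeR adjusted p = 0.157), Eln was at -1.26 ± 0.56 (edgeR adjusted p = 0.326), and an unadjusted p under 0.05 was seen for these 2 genes, while DESeq2 called Ltbp2, beside 4.35% of all genes in DESeq2. Without E13.5 epithelium replicate 3, 8 members passed with a negative interaction, beside 9.21% of all genes, from -0.88 ± 0.17 for Fbln2 to -2.05 ± 0.26 for Fbln5. A negative value means that epithelium gained less, or lost more, than mesenchyme. Ltbp4 was at 0.02 ± 0.20 with all libraries and 0.09 ± 0.20 without replicate 3, and Fbln1 at -0.55 ± 0.17 (edgeR adjusted p = 0.0569) in the latter fit.

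In the deposited names, 1 library of each group (epithelium replicate 3 and mesenchyme replicate 1) carries no number and the others do. What this naming stands for is not given in the sources used here, so each comparison was also read within either series as a log2 ratio of mean FPKM, with no test, since the unnumbered series holds 1 library a group. The mesenchyme stage ratios of the 9 genes that rose were above 0 in either series, at 3.74 unnumbered and 3.83 numbered for Eln, 1.26 and 0.81 for Fbln2 and 3.10 and 3.02 for Thsd4. For Ltbp4 in epithelium with stage they were 1.64 and 1.97. At E13.5 the tissue ratio of Eln was -0.16 unnumbered and -2.31 numbered, and that of Fbln5 was 0.21 and -2.15, the unnumbered epithelium library there being the one that stood apart in its mesenchyme markers. In every group the unnumbered library differed more from the others than these did from each other. By median absolute difference over genes, it was at 21.85% and 22.44% against 4.90% in E11.5 epithelium, and 12.4% and 14.3% against 5.58% in E11.5 mesenchyme. The E13.5 values were 21.5% and 25.4% against 9.02% in epithelium, and 14.6% and 18.2% against 7.84% in mesenchyme.

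Ratios of transcript levels between the fibre genes were compared within each library, where scaling between libraries plays no part. The protein make-up of the fibre was not measured. The share of Fbn1 in the 2 fibrillins at E11.5 was 34.9%, 34.0% and 34.4% in epithelium and 29.9%, 32.6% and 32.4% in mesenchyme. At E13.5 the share was 48.4%, 47.3% and 41.7% in epithelium and 38.8%, 42.0% and 43.3% in mesenchyme. Fbn2 was thus the more abundant fibrillin in every library, and the Fbn1 share was higher at E13.5 in every library of either tissue. The stage difference was 10.5 percentage points (exact permutation within tissue, two-sided, p = 0.005, the smallest the 400 arrangements allow, adjusted p = 0.0133 over the 8 ratio tests). Epithelium was 3.60 points above mesenchyme (exact permutation within stage, p = 0.025, adjusted p = 0.04). Without E13.5 epithelium replicate 3 the differences were 11.6 and 4.62 points (exact permutation adjusted p = 0.01 for each). That tissue difference passed less firmly, since the adjusted p of the exact test was 0.06 to 0.1 when E13.5 epithelium replicate 1 or 2 or any E13.5 mesenchyme library was left out.

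Eln per fibrillin, the FPKM of Eln over the sum of Fbn1 and Fbn2, was 0.152, 0.172 and 0.0766 in E11.5 epithelium and 0.0895, 0.134 and 0.129 in E11.5 mesenchyme. The E13.5 ratios were 0.746, 0.569 and 0.511 in epithelium and 0.432, 0.801 and 0.851 in mesenchyme. Every E13.5 library was above every E11.5 library, and at E13.5 the tissues overlapped. In this ratio, E13.5 epithelium replicate 3 was not above its group. The stage difference was 0.526 (exact permutation p = 0.005, adjusted p = 0.0133), or 0.550 without E13.5 epithelium replicate 3, and the tissue difference of -0.04 did not pass (exact permutation p = 0.715, adjusted p = 0.715).

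Fbln2 made up 21.1%, 21.4% and 21.6% of the 3 fibulins in E11.5 epithelium and 28.7%, 29.6% and 29.7% in E11.5 mesenchyme. At E13.5 its share was 29.0%, 24.9% and 37.3% in epithelium and 44.4%, 38.0% and 33.9% in mesenchyme. The stage difference was 9.26 points (exact permutation p = 0.005, adjusted p = 0.0133), and epithelium lay at -8.17 points against mesenchyme (exact permutation p = 0.01, adjusted p = 0.02). Without E13.5 epithelium replicate 3 they were 7.53 and -9.91 points (exact permutation adjusted p = 0.01 and 0.0133). Ltbp1 made up 59.0% to 62.2% of the 3 LTBP genes in E11.5 epithelium and 61.7% to 64.3% in E11.5 mesenchyme. At E13.5 the Ltbp1 share was 33.7%, 28.5% and 57.6% in epithelium and 66.2%, 57.3% and 52.9% in mesenchyme, so that epithelium replicates 1 and 2, where Ltbp4 was the main LTBP, lay apart from all other libraries. The Ltbp1 differences of -12.7 points by stage (exact permutation p = 0.04, adjusted p = 0.0533) and -10.6 points by tissue (exact permutation p = 0.095, adjusted p = 0.109) did not pass. They were -17.1 points (adjusted p = 0.0229) and -15.0 points (adjusted p = 0.0133) in the same exact permutation test without E13.5 epithelium replicate 3, and the stage value was -14.5 points (adjusted p = 0.01) without E13.5 mesenchyme replicate 1.

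**Figure D4:**
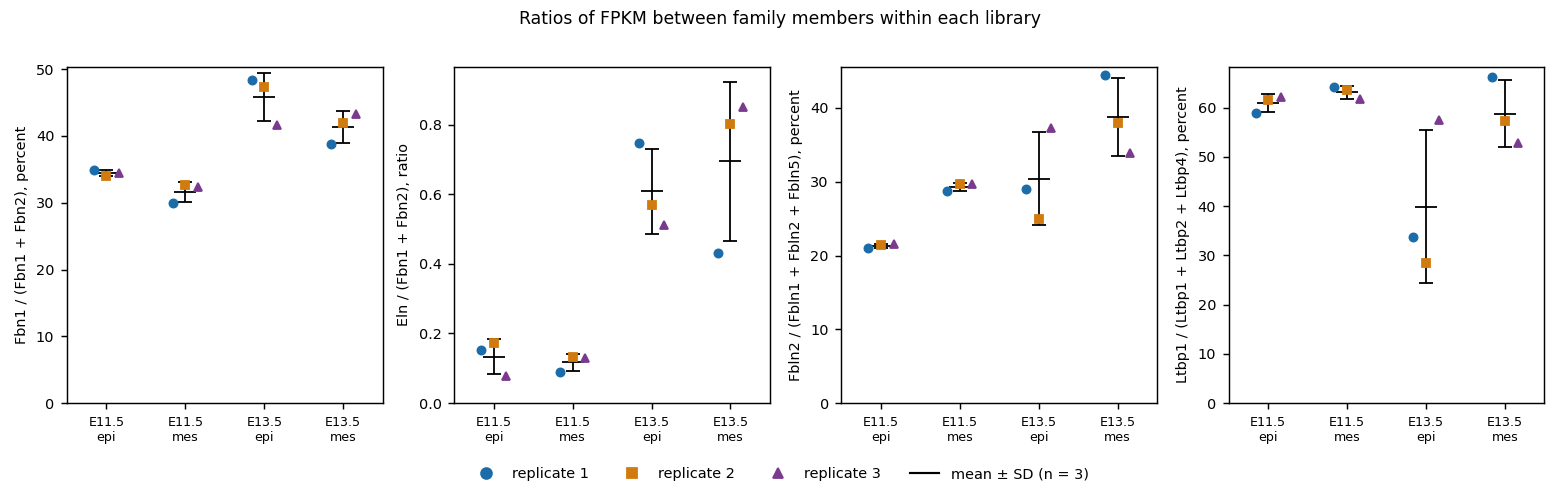
Ratios of FPKM within each library (vertical axes, percent or plain ratio, linear from 0) in the 4 groups, where symbols are libraries and bars the mean and SD. The Fbn1 share and the Eln to fibrillin ratio are higher in every E13.5 library than in every E11.5 library of the same tissue, and E13.5 epithelium replicates 1 and 2 have the lowest Ltbp1 shares, 33.7% and 28.5%.

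Genes that act with the elastic fibre, in lists chosen by function, were read in the same fits. In mesenchyme with stage, 35 of the 41 listed genes that could be tested rose and none fell, beside 22.0% of all genes tested that rose. All 5 crosslinking oxidases rose, led by Loxl4 at a log2 fold change of 4.75 ± 0.51 (SE, edgeR adjusted p = 0.00018) and Lox at 4.39 ± 0.16 (edgeR adjusted p = 2.2e-06). Loxl4 was low, going from 0.0781 ± 0.0580 FPKM (SD, 13 to 50 estimated counts) at E11.5 to 2.12 ± 0.707 FPKM at E13.5. Lox, the main enzyme that crosslinks elastin and collagen, was at 2.45, 3.73 and 3.68 FPKM in mesenchyme at E11.5 and 63.3, 72.7 and 74.4 FPKM in mesenchyme at E13.5. The E11.5 epithelium libraries were at 5.08, 4.90 and 7.32 FPKM, above the mesenchyme of that stage by a log2 fold change of 0.87 ± 0.20 (SE, edgeR adjusted p = 0.0462).

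Of the 6 microfibril-associated proteins 4 rose, among them Mfap5 at 4.31 ± 0.45 (SE), from 0.0722 ± 0.0287 to 1.48 ± 0.69 FPKM (SD), Emilin3 at 1.98 ± 0.16 and Mfap2 at 0.63 ± 0.18. Mfap5 and Mfap2 bind fibrillin directly. Of 5 other fibulins 4 rose, with Efemp1 at 1.64 ± 0.20, Fbln7 at 1.49 ± 0.23 and Efemp2, a fibulin that brings Lox to tropoelastin, at 0.96 ± 0.16. All 5 genes of the latent TGF-beta complex rose, with Ltbp3 at 1.95 ± 0.20, Tgfb3, a TGF-beta ligand, at 1.67 ± 0.15 and Lrrc32 at 1.66 ± 0.19. Of 8 ADAMTS and ADAMTS-like genes 7 rose, with Adamtsl3 at 3.21 ± 0.35, Adamtsl5 at 3.18 ± 0.54 and Adamtsl1 at 2.67 ± 0.12. Adamtsl5 was low, going from 0.0611 ± 0.0405 FPKM (SD, 11 to 44 estimated counts) to 0.578 ± 0.232 FPKM. Adamtsl3 went from 0.139 ± 0.0696 FPKM (SD, 52 to 143 estimated counts) to 1.31 ± 0.181 FPKM. Of 8 integrin chains that read the RGD sequence of microfibrils 6 rose, with Itgb6 at 2.34 ± 0.42, Itga8 at 1.24 ± 0.12 and Itgb1 at 0.82 ± 0.09. Itgb6 was low as well, going from 0.0418 ± 0.0165 FPKM (SD, 15 to 32 estimated counts) to 0.217 ± 0.0462 FPKM. The elastin-degrading enzymes rose in 4 of the 4 that could be tested, with Mmp9 at 3.21 ± 0.29, Ctsk at 2.05 ± 0.13 and Ctss at 1.53 ± 0.31. The list medians lay between 0.62 for the integrin chains and the microfibril-associated proteins and 2.16 for the ADAMTS genes, beside 1.72 for the members and 0.01 for all genes tested.

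In epithelium with stage, 5 of these partner genes rose and none fell, beside 5.47% of all genes tested that rose. They were Adamtsl1 at 2.61 ± 0.24 (SE), Adamtsl3 at 2.47 ± 0.57, Adamts17 at 1.60 ± 0.11, Ltbp3 at 1.34 ± 0.30 and Itgb5 at 0.64 ± 0.14 (edgeR adjusted p between 0.0019 and 0.0433). At E11.5, 3 partner genes were higher in epithelium (Lox, Adamts17 and Itgb6) and 5 lower (Emilin2, Adamts10, Itga5, Itga8 and Mmp2), of 41 tested and beside 6.38% of all genes called in either direction. Of these Itgb6, an integrin chain of epithelia, differed most, at 2.13 ± 0.41 (edgeR adjusted p = 0.0228). Its levels were near the floor, at 0.177 ± 0.0360 FPKM (SD) in E11.5 epithelium and 0.0418 ± 0.0165 FPKM in E11.5 mesenchyme. At E13.5 only Mmp9 passed between the tissues, at -2.38 ± 0.38 in epithelium against mesenchyme (edgeR adjusted p = 0.0419), beside 1.83% of all genes called in either direction. Without E13.5 epithelium replicate 3, the 5 oxidases, the 5 genes of the latent TGF-beta complex and 5 of the 6 microfibril-associated genes were lower in epithelium at E13.5, beside the 15.7% of all genes that were lower in that fit, and 4 of the 6 microfibril-associated genes were lower at E13.5 than at E11.5 in epithelium, beside 1538 of 21346 genes. The other lists are not given for that fit. With all libraries, Itgb6 (0.85), Hmcn2 (0.40), Itgb5 (0.21), Itgb8 (0.14) and Itgav (0.08) had a log2 fold change above 0 at E13.5. None of these passed, and the other partner genes tested were below 0.

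**Figure D5:**
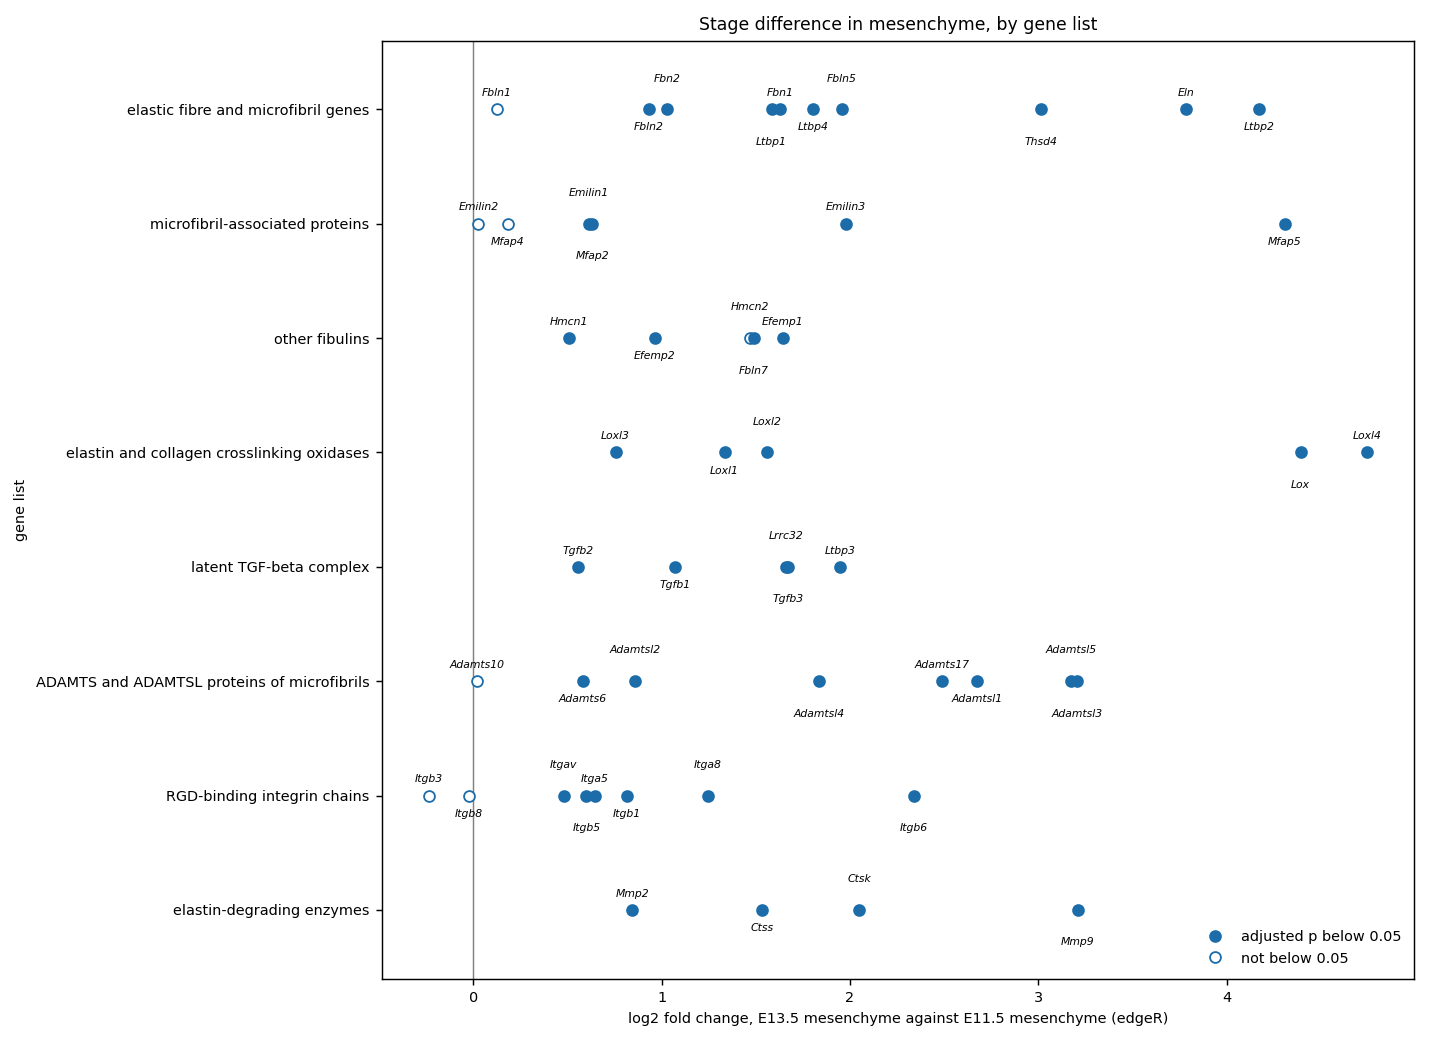
Log2 fold change of E13.5 against E11.5 mesenchyme (horizontal axis) for the 10 genes and for 7 lists of genes that act with them (vertical axis), with filled circles for an adjusted p below 0.05. All filled circles lie right of 0, Fbln1 is the open circle of the top row, and Lox and Loxl4 lie furthest right at 4.39 and 4.75.

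The genes whose levels across the 12 libraries were most like those of a member, by Pearson's r of log2(FPKM + 0.5) among 7985 genes with at least 5 FPKM in a group, are given for 3 of the 4 members with the highest levels. For Eln they were Gdf10, Pttg1ip and Adam15, with r from 0.993 to 0.995. Those of Fbn2 were Fn1, Slit3 and Cdh11 (0.986 to 0.992), and those of Fbln2 were Tns1, Col27a1 and Slc18b1 (0.981 to 0.985). The points share 4 groups and the library that stood apart, so these values describe a common pattern only. Among the members, Ltbp4 and Fbln1 were the least alike, with r = 0.02 over the same 12 libraries.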

How the data were processed

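RNA-seq of 12 poly(A) libraries was read from 1 deposited table, which holds estimated counts and FPKM values side by side. Per the labels, the submitters' processing notes and the study's methods, the authors trimmed paired reads with Cutadapt (1.9), aligned them to mm10 with HISAT2 (2.0.4) and made estimated counts and FPKM values with StringTie (1.3.4d). The deposited counts are whole numbers, and dividing them by 3 was an alternative because they sum to more than the read pairs the study gives. The authors' notes name edgeR, and the study's methods DESeq2.

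Gene tests used edgeR 4.0.16 (filterByExpr, TMM, quasi-likelihood) in R 4.3.3, each comparison on its own 6 libraries and the interaction on 12, with p-values adjusted by Benjamini-Hochberg over all genes tested and called below 0.05. Levels, ratios and Pearson's r used FPKM, ratios being tested by exact permutation. Fits were tested on simulated data. Alternatives were DESeq2 1.42.0, limma 3.58.1 on log2(FPKM + 0.5) or with 0.1, other filters and size factors, replicate blocks, a term for unnumbered libraries and leaving out each library. All members are named, and of the partner lists up to 3 genes per list and comparison with the largest change among those that passed. Lox, Loxl4, Mfap5, Adamtsl3, Adamtsl5 and Itgb6 levels and the names of the E11.5 calls were given after their values were seen where they exceed that rule. Members and lists were chosen with earlier results of these data known. Promoter sequences are from RefSeq (GRCm38.p6), in which Fbn2 was not used and Eln was not matched. The genes most like Fbln1 are not reported here.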

Additional observations from a re-analysis of the deposited data

How the results depend on the processing

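The mesenchyme rise with stage was called for 9 or 10 members when any library was left out (27.9% to 39.3% of all genes called). It was called for 8 with all 12 libraries fitted (28.4%). In limma with its FPKM filter, where Ltbp2 has no value, it was called for 8 (45.8% with 0.5 and 45.6% with 0.1 added). Each count of members is followed by the percent of all genes called in the same fit, which moved as well. The number called at E11.5 (1, 6.38%) was 2 with DESeq2 (9.33%), 3 with a term for the unnumbered libraries (19.8%), 3 with the replicate block by library name (11.6%, an alternative chosen after seeing the data), 0 with all 12 libraries fitted (3.82%), and 1 to 4 with a library left out (2.78% to 17.8%). At E13.5 (0, 1.83%) it was 2 with DESeq2 (11.2%), 2 with all 12 libraries fitted (9.16%), and 0 to 8 with a library left out (0% to 28.2%). In epithelium with stage (3, 8.48%) it was 1 with the replicate block (0.264%), 1 with the block by library name (0.264%), and 1 to 5 with a library left out (0.243% to 17.2%). For the interaction (0, 0.204%) it was 1 with DESeq2 (4.35%) and 0 to 8 with a library left out (0.0693% to 13.4%). The causes were not tested.

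What same-numbered libraries share besides a number is not given in the sources used here. By replicate number, their deviations from the group means correlated at -0.127 to 0.109, and every library correlated best with its own number in the mesenchyme stage comparison. By the number in the library name the range was -0.0588 to 0.171, and this held in the mesenchyme stage comparison and at E11.5 (0.171, 0.0522 and 0.0844). With the replicate block, the ratio differences of 10.5, 3.60, 0.526, 9.26 and -8.17 (Fbn1 share by stage and tissue, Eln per fibrillin by stage, Fbln2 share by stage and tissue) had exact permutation adjusted p of 0.0833, 0.125, 0.0833, 0.0833 and 0.1. Those by stage had the smallest exact permutation p that the 64 arrangements allow, 0.03125. Those by tissue were above it, at 0.09375 for the Fbn1 share and 0.0625 for the Fbln2 share. The Ltbp1 share by stage passed from counts, at -12.3 points. With a library left out, the Fbn1 share by tissue ranged from 2.95 to 4.62 points, the Ltbp1 share from -17.1 to -9.83 by stage and from -15.0 to -7.70 by tissue, and Eln per fibrillin by tissue from -0.101 to 0.00397, above 0 without E13.5 mesenchyme replicate 3.

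Among single-gene values, 802 kept their direction and side of the threshold, 35 newly passed, 15 no longer passed and 35 changed sign, the last in comparisons where the gene had not passed. With a library left out at E11.5, Eln ranged from -0.33 to 0.0227. Other sign changes at E11.5 were Fbln5 at -0.00629, -0.00569 and -0.00629 in limma and -0.0523 to 0.0973 with a library left out, and Ltbp4 at -0.0684 to 0.0363 (0.0251 and 0.0361 among them) with a library left out. Ltbp4 at E13.5 was 0.00456 with DESeq2 size factors, 0.00247 with DESeq2, 0.00789 with the replicate block, 0.00712 with the term for unnumbered libraries, 0.0177 with counts divided by 3, 0.00791 with the block by library name, 0.0141 with all 12 libraries, and -0.125 to 0.104 with a library left out. Fbn2 in epithelium with stage was -0.12, -0.13 and -0.12 in limma, -0.14 with either block, -0.13 with the term for unnumbered libraries and -0.79 to 0.50 with a library left out, where Fbln5 ranged from -0.0564 to 1.32. With a library left out, the interaction ranged from -0.88 to 0.10 for Fbln2 and from -0.129 to 0.123 for Ltbp4. Depth limits Ltbp2 at E11.5, with 14 to 49 estimated counts a library. Ltbp2 was under the FPKM filter of limma and has no value there, and without that filter limma gave 0.99 in mesenchyme and 0.58 in epithelium with stage, on a scale that understates low genes.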
